A study of Rattus norvegicus with 22 samples.

Results

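The heat shock proteins and DnaJ cochaperones on the arrays were 67 genes, read from 85 of 30367 probes, among 19167 gene symbols in all. They were chosen by symbol: every gene named Hspa, Hspb, Hspd, Hspe or Hsph with a number, the Hsp90a genes, every gene named Dnaja, Dnajb or Dnajc with a number, and Cryab, Hsf1 and Hsf2, with Hspa5 left out. Each gene was read from its brightest probe over the 22 arrays. By role they were 9 small heat shock proteins with Cryab counted among them, 12 HSP70 and HSP110 proteins, 2 HSP90 proteins, 2 subunits of the mitochondrial chaperonin, 2 heat shock transcription factors and 40 DnaJ proteins, the last in class A (4), class B (11) and class C (25). Of the 67, 53 were well above the background of the array on all 22 arrays and 4 on none.

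Tongue tissue came from 11 male F344 rats, whose drinking water had held 20 ppm of the carcinogen 4-nitroquinoline-1-oxide (4-NQO) over 10 weeks. Each rat gave a piece of histologically verified oral squamous cell carcinoma (OSCC) and a piece of adjacent tongue of normal phenotype, both taken 23 to 26 weeks after the first exposure, at about 33 weeks of age. Although every title reads untreated and the normal pieces are labelled with treatment none, the protocol takes both pieces from carcinogen-treated rats, so the normal group is exposed tissue and not tongue of unexposed animals. Each piece was hybridised to 1 single-color array, and a level below is the log2 of the signal over the 75th percentile of its array. The difference is OSCC minus normal within a rat, so 1 unit is a 2-fold change. Errors of differences are the standard errors of the limma fit to the 11 pairs, with variances moderated across all probes.

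Heat shock proteins are molecular chaperones that bind unfolded proteins and keep them from aggregating. HSP70 proteins bind and release their clients in a cycle driven by ATP; DnaJ proteins bring the clients and start ATP cleavage, HSP110 proteins reset the cycle by exchanging the nucleotide, and HSP90 takes over clients at a late stage of folding. Small heat shock proteins hold unfolded clients without ATP, and several of them are abundant in striated muscle, of which the tongue is largely made. Heat shock transcription factors induce many of these genes under stress, while a separate set, working in the endoplasmic reticulum (ER), is induced when unfolded proteins gather there.

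Most members were not called, and those that changed by 2-fold or more were mostly lower in OSCC. By limma with Benjamini-Hochberg adjustment over all probes, a gene was called when its adjusted p was under 0.05 and it differed by 2-fold or more. In these terms 2 members were higher in OSCC, 12 were lower and 53 were not called. The 14 called members were 20.9% of the 67, beside 14.7% of all 19167 genes called, of which 7.48% were higher and 7.24% lower. At any fold, 10 members passed the adjusted p as higher and 24 as lower, beside 45% of all genes, 17% higher and 27.9% lower. Among the 24 were Dnajb7 and Dnajb13, well above background on no array, and Dnajc5b, above it on 1 normal array. Their falls are of signals near the floor. The median difference was -0.18 over the members and -0.21 over all genes. Without the 9 small heat shock proteins, 8 of 58 members were called, which is 13.8%. Without the pair of rat 11, 25 or 26 the members called lower were 7, 6 and 6, and without the pairs of rats 21, 22 and 24 together they were 18. The calls over all 30367 probes, in either direction, moved as well. They were 4201 with all pairs, 3649, 3680 and 3837 without rat 11, 25 or 26, and 6924 without rats 21, 22 and 24. The plot of all members gives each difference with its error.

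**Figure D1:**
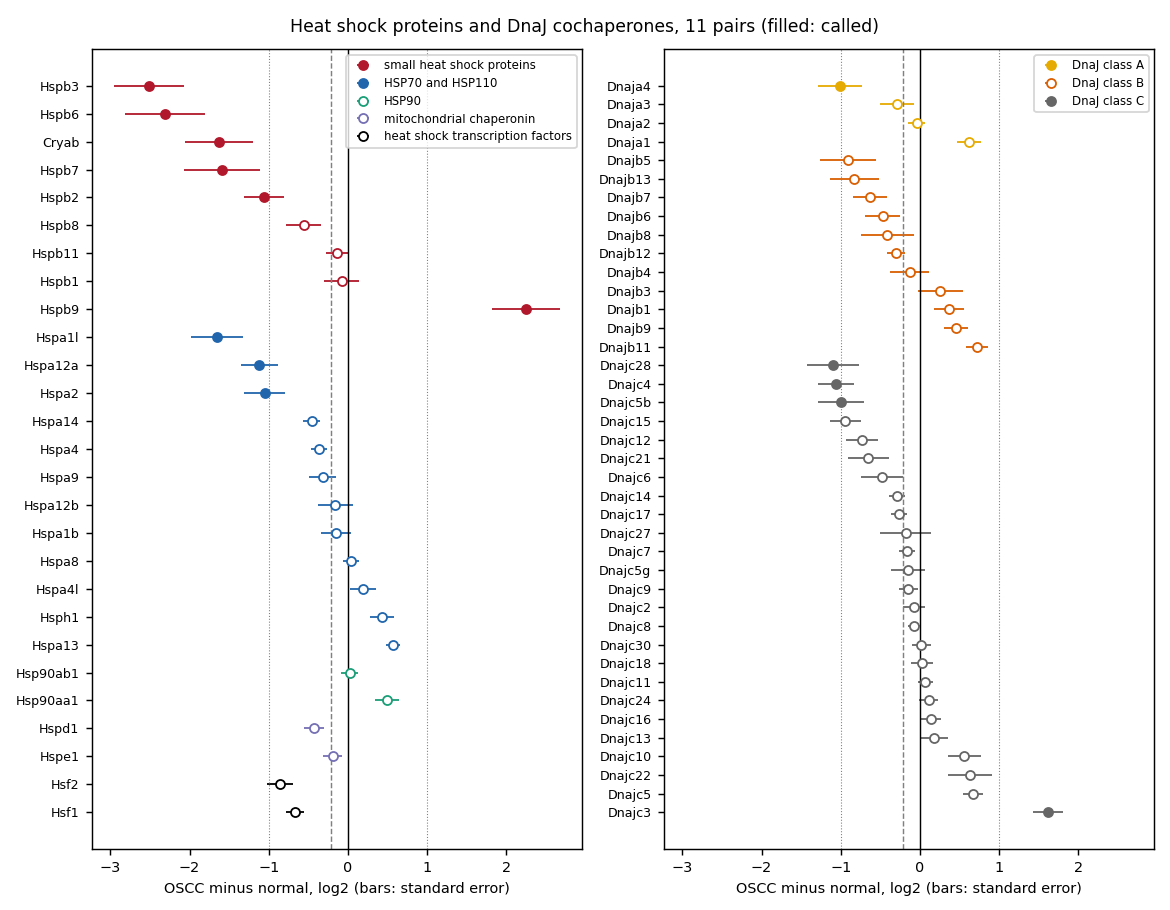
Difference between OSCC and normal tongue for the 67 members, grouped by role. Points are log2 differences within 11 pairs, bars are limma's moderated standard errors and filled points are called members. Dotted lines mark 2-fold and the dashed line marks the median of all genes at -0.21. Hspb3, Hspb6, Hspa1l, Cryab and Hspb7 lie farthest to the left, and Hspb9 and Dnajc3 are the called members on the right.

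Small heat shock proteins held the largest changes. Of the 9, 5 were called lower (Hspb3, Hspb6, Cryab, Hspb7 and Hspb2), 1 was called higher (Hspb9), and 3 were not called (Hspb8, Hspb11 and Hspb1), with a median difference of -1.06. The 66.7% called stands beside 14.7% of all genes. The 5 lower genes code for the forms best known from heart and skeletal muscle. In bulk tissue, fewer cells of a type and less RNA per cell cannot be told apart.

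Hspb3, which pairs with Hspb2 in muscle, had levels from 1.78 to 2.85 in normal tongue (median 2.64) and from -2.03 to 2.55 in OSCC (median -0.41). It was lower in OSCC in all 11 pairs, although the OSCC pieces of rats 21, 22 and 24 stayed within the normal range. The difference was -2.51 ± 0.44 (limma adjusted p = 0.0013), a fold of 5.69. Its probe lies at bases 45078729 to 45078788 of chromosome 2 in the rn4 build used by the array annotation.

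Hspb6, the muscle protein Hsp20, ran from 4.74 to 5.87 in normal tongue (median 5.45) and from -0.25 to 5.56 in OSCC (median 3.06). The OSCC piece was the lower one in 10 of 11 pairs, and 8 OSCC pieces lay below every normal piece. The difference was -2.31 ± 0.51 (limma adjusted p = 0.0042), ranging from -5.13 in rat 13 to 0.44 in rat 22.

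Cryab, the chaperone of desmin filaments also known from the eye lens, lay between 6.13 and 7.22 in normal tongue (median 6.88) and between 2.81 and 7.22 in OSCC (median 4.94). Here 8 OSCC pieces were below all normal pieces and 3, those of rats 21, 22 and 24, were slightly above their own normal piece, by 0.37, 0.42 and 0.23. The difference was -1.63 ± 0.43 (limma adjusted p = 0.011). Hspb2, which lies beside Cryab on chromosome 8 and binds the myotonic dystrophy kinase, differed by -1.06 ± 0.25 (adjusted p = 0.0056), with OSCC levels from 0.87 to 3.23 against 2.34 to 3.13. It passed the adjusted p in all 5 other scalings but reached 2-fold in 2 of them, at -1.26 to -0.97. Hspb7, a protein of heart and skeletal muscle, differed by -1.59 ± 0.48 (adjusted p = 0.022), with a rise of 1.54 in rat 22 and a fall of 3.56 in rat 25.

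Hspb1 and Hspb8, the more broadly expressed small heat shock proteins, did not pass. Hspb1 (Hsp27), a protein of epithelium as well as muscle, had levels from 5.79 to 7.13 in normal tongue (median 6.58) and from 5.38 to 7.20 in OSCC (median 6.38). The groups overlapped almost completely, and 5 of 11 pairs were higher in OSCC. Its difference was -0.08 ± 0.22 (limma adjusted p = 0.77), and its sign turned with 2 of the 5 other scalings, to 0.35 under quantile normalization. Hspb8 differed by -0.56 ± 0.22 (adjusted p = 0.057), with 8 OSCC pieces below all normal pieces and those of rats 21, 22 and 24 above their normal pieces by 0.37, 0.62 and 0.50. Hspb11, named after its values were seen, whose current symbol is Ift25 and whose product works in transport within cilia, differed by -0.14 ± 0.14 (adjusted p = 0.40).

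Hspb9, a small heat shock protein described mainly in testis, went the other way. It was dim, well above background on 2 of 11 normal and 9 of 11 OSCC arrays, with levels from -5.60 to -3.84 in normal tongue (median -4.52) and from -4.23 to -0.96 in OSCC (median -2.16). In 7 pairs the rise was 3.07 or more, while rats 17 and 21 had -0.25 and -0.21 and rats 22 and 24 had 0.83 and 0.97. The difference was 2.25 ± 0.43 (limma adjusted p = 0.0021). With so few normal arrays above background the size is approximate, and it ranged from 0.85 to 2.34 over the other scalings and was called in 4 of 5.

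**Figure D2:**
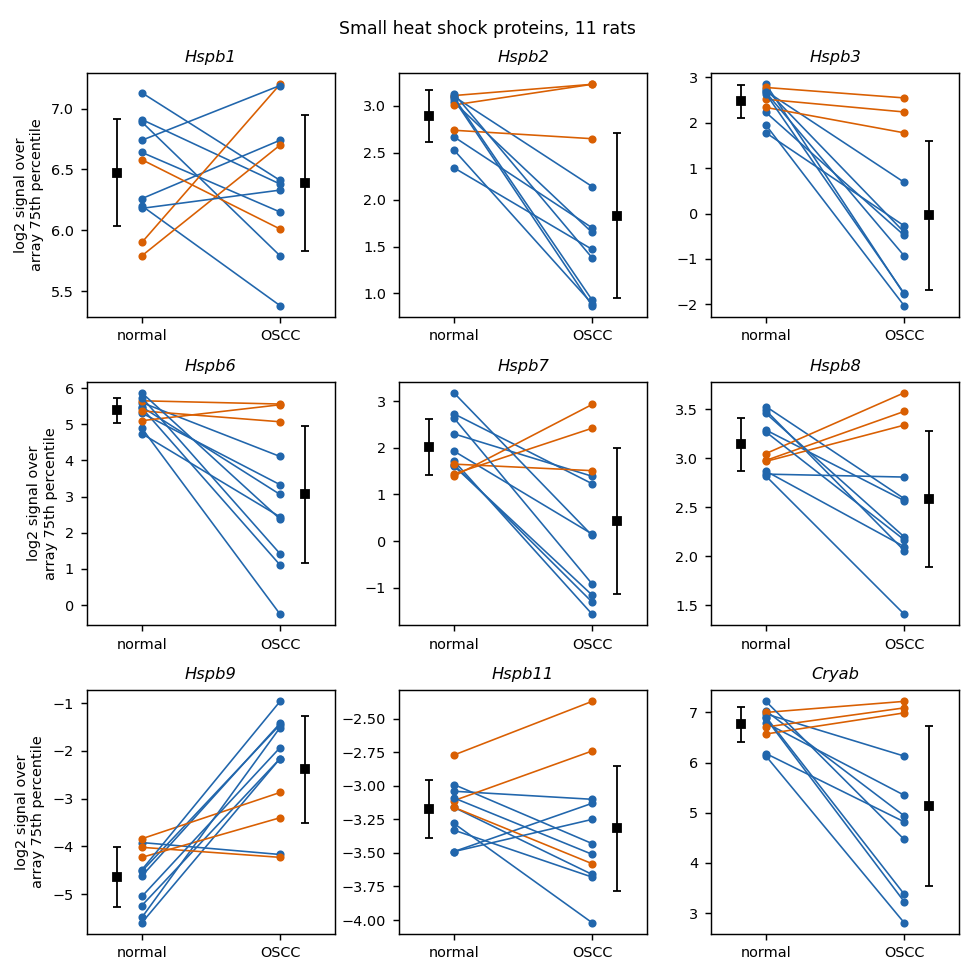
Levels of the 9 small heat shock proteins in the normal and OSCC piece of each rat. The vertical axes give log2 signal over the 75th percentile of the array, lines join the pieces of 1 rat, squares with bars are the mean and SD of 11, and orange lines are rats 21, 22 and 24. In Hspb2, Hspb3, Hspb6 and Cryab the blue lines fall and the orange lines stay nearly level.

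Skeletal muscle genes moved in the same rats. Of 19 skeletal muscle markers on the array, such as the creatine kinase Ckm, myoglobin and the fast troponins, 14 were called lower and 1 (Myh2) higher, with a median of -1.89. Their mean level ran from 5.52 to 6.63 in the normal pieces and from 1.22 to 7.42 in OSCC. The mean difference per rat, used here as a muscle score, was lower in 8 pairs (-4.30 to -1.0) and higher in rats 21, 22 and 24 (1.49, 0.78 and 1.16). The part of muscle content in the members' changes was not tested.

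The score left a gap between -1.0 and 0.78, which is 30.7% of its range and barely over the 30% set as the limit for a split. Relations with it were therefore computed within the 8 pairs below the gap and not over all 11. Under some other scalings the gap stayed below the limit, all 11 pairs entered and more members passed. Hspb6 had Pearson's r = 0.97 and Spearman's rho = 0.93 (exact permutation p = 0.00027 and 0.0022, n = 8). Cryab had r = 0.97 and rho = 0.88 (exact permutation p = 0.0011 and 0.0072), and Hspb3 had r = 0.94 and rho = 0.90 (exact permutation p = 0.0014 and 0.0046). Without the 2 pairs farthest from the median score, r was 0.97, 0.97 and 0.95 for these genes (n = 6). Hspb8, Hspb1 and Hspb9 had r of -0.08, -0.47 and -0.40 (exact permutation p = 0.87, 0.23 and 0.40).

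Across the members, 13 had a positive and 4 a negative r at an unadjusted p below 0.05, which is 19.4% and 5.97% of the 67, beside 8.79% and 9.07% of 19116 genes outside the muscle list. Adjusted over those 19116 genes no member and no gene passed, and Hspb6 had the smallest adjusted p of a member, 0.066. Adjusted over the 67 relations alone, 3 passed by Pearson (Hspb6, Cryab and Hspb3) and none by Spearman. Those 3 positive relations rest on few pairs, since none passed without the pair of rat 9, 17 or 26. Among DnaJ proteins, Dnajb11 had the most negative r, -0.94, with rho = -0.69 (exact permutation p = 0.0030 and 0.069). Dnajc12 and Dnajc22 had the largest r, both 0.82 (exact permutation p = 0.018 and 0.016). The called Dnaja4 and Dnajc4 had r of 0.78 and 0.81 (exact permutation p = 0.027 and 0.019). No DnaJ protein passed after adjustment. The plot of members against the muscle genes shows both kinds.

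**Figure D3:**
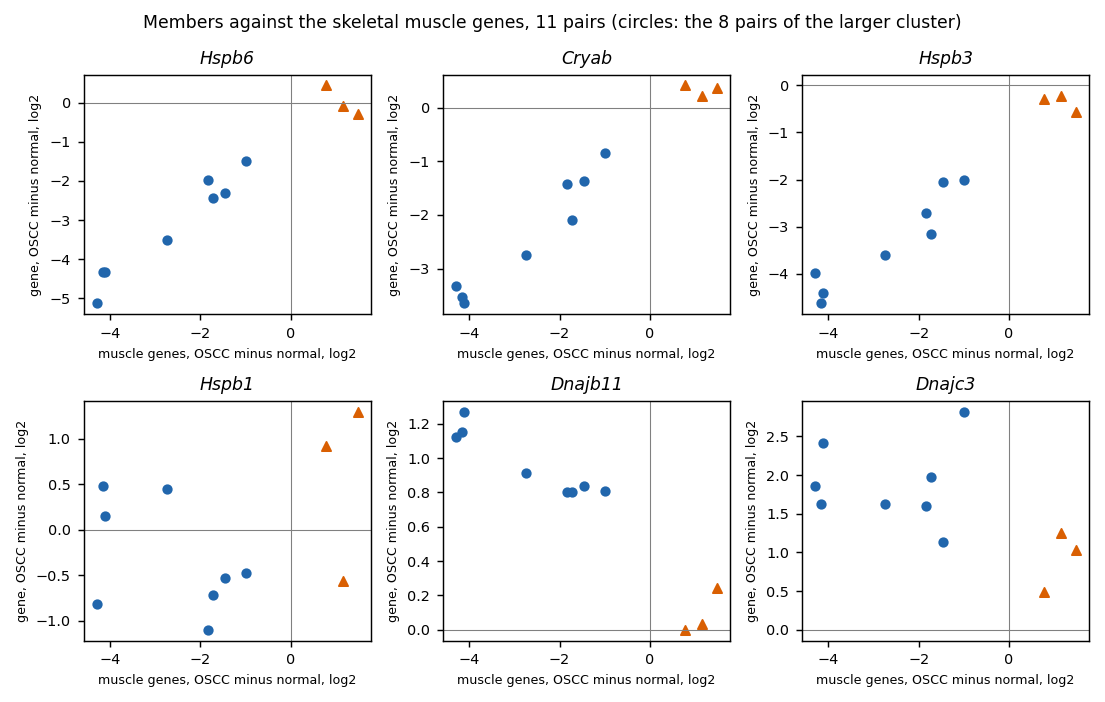
Difference of 6 members in each rat against the mean difference of the skeletal muscle genes, both OSCC minus normal on the log2 scale. Circles are the 8 pairs within which the relations were computed and triangles are rats 21, 22 and 24. Hspb6, Cryab and Hspb3 rise along the muscle score, Dnajb11 falls, and Hspb1 and Dnajc3 show no such order.

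HSP70 and HSP110 proteins moved less than the small heat shock proteins. Of the 12, 3 were called lower and none higher, which is 25.0% called beside 14.7% of all genes. At any fold 2 passed as higher and 5 as lower, beside 17% and 27.9% of all genes. The median was -0.24, beside -0.21 over all genes. Hspa1l, an HSP70 best known from male germ cells, had levels from -1.71 to -0.97 in normal tongue (median -1.29) and from -4.05 to -1.32 in OSCC (median -3.37). In 8 rats its OSCC piece was below every normal piece, and in rats 21, 22 and 24 it differed by 0.16, 0.19 and -0.24. The difference was -1.65 ± 0.33 (limma adjusted p = 0.0025). Hspa12a, a distant HSP70 relative, differed by -1.12 ± 0.23 (adjusted p = 0.0031). A second, dimmer probe of Hspa12a gave -0.21 ± 0.33 and did not pass. Hspa2, another HSP70 of germ cells, differed by -1.05 ± 0.26 (adjusted p = 0.0088), with the OSCC piece lower in 10 of 11 rats. Hspa1l and Hspa12a were called in 4 of the 5 other scalings and Hspa2 in 3.

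Hspa8, the constitutive HSP70 of the cytosol, lay between 5.97 and 6.40 in normal tongue (median 6.27) and between 6.01 and 6.58 in OSCC (median 6.25). The groups overlapped throughout, and the difference was 0.04 ± 0.10 (limma adjusted p = 0.72), while over the other scalings it ran from -0.16 under array median scaling to 0.46 under quantile normalization, which passed the adjusted p. Its 4 probes disagreed. A pair of them gave 0.41 and 0.42 (adjusted p = 0.014 and 0.011), and the remaining ones gave 0.04 and 0.06.

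Hspa1b, the stress-induced HSP70, lay between 1.22 and 2.08 in normal tongue (median 1.72) and between 0.59 and 2.15 in OSCC (median 1.74). It was higher in 6 of 11 pairs and differed by -0.15 ± 0.19 (limma adjusted p = 0.52). A second probe, well above background on no array, gave -0.75 ± 0.24 (adjusted p = 0.026). Hspa1a, the near-identical copy of Hspa1b, had no probe of that name, and since RefSeq gives Hspa1b as a synonym of Hspa1a the copies cannot be told apart here.

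Of the exchange factors of the HSP110 type, 1 passed as higher and 1 as lower. Hsph1 (Hsp105) had a median level of -1.66 in normal tongue and -1.09 in OSCC. Its mean difference was 0.43 ± 0.15 (limma adjusted p = 0.038), with 9 of 11 pairs higher. Hspa4 (Apg-2) had medians of 1.91 and 1.49 and a mean difference of -0.37 ± 0.10 (adjusted p = 0.014), with 10 of 11 pairs lower. Hsph1 passed in 2 of the 5 other scalings and not in the 9 pairs scanned across days (0.37, adjusted p = 0.14), and Hspa4 passed in 4 of 5 scalings. Hspa4l, named after its values were seen, differed by 0.19 ± 0.17 and did not pass. Mitochondrial Hspa9 (mortalin) differed by -0.32 ± 0.17 (adjusted p = 0.13). Hspa14, a ribosome-associated HSP70 named here after its values were seen, was lower in all 11 pairs, by -0.46 ± 0.11 (adjusted p = 0.0089).

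Of the HSP90 isoforms, Hsp90aa1 passed the adjusted p and Hsp90ab1 did not. Hsp90aa1, the stress-inducible form, had levels from 2.22 to 2.90 in normal tongue (median 2.45) and from 2.44 to 3.40 in OSCC (median 3.01). The groups overlapped, with 7 OSCC pieces above all normal ones. The difference was 0.49 ± 0.15 (limma adjusted p = 0.021), and its 3 probes gave 0.49, 0.56 and 0.73, all past the adjusted p, which the brightest passed in 3 of the 5 other scalings. Rats 21, 22 and 24 had 0.00, 0.02 and -0.18. Hsp90ab1, the constitutive form, lay between 3.94 and 4.45 in normal tongue and 3.85 and 4.55 in OSCC, with a difference of 0.02 ± 0.11 (adjusted p = 0.90) that ran from -0.18 to 0.21 over the other scalings and passed in 1 of 5. The difference between the isoforms' changes was not tested.

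In the mitochondrial chaperonin, Hspd1 (Hsp60) had levels from 4.01 to 4.60 in normal tongue (median 4.28) and from 3.35 to 4.21 in OSCC (median 3.93), and it fell by 0.43 on the log2 scale with an error of 0.13 (limma adjusted p = 0.024). It was lower in 9 of 11 pairs, 7 OSCC pieces lay below all normal ones, and it passed in 3 of the 5 other scalings. Its partner Hspe1 (Hsp10) differed by -0.19 ± 0.12 (adjusted p = 0.21), while a second, dimmer probe gave -0.36 ± 0.13 (adjusted p = 0.040).

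Both heat shock transcription factors were lower in OSCC by their brightest probe. Hsf1, the main activator of the heat shock response, ran from 0.71 to 1.43 in normal tongue (median 1.20) and from 0.16 to 0.92 in OSCC (median 0.40). Only the highest OSCC pieces reached the normal range, and 9 lay below it. The difference was -0.67 ± 0.11 (limma adjusted p = 0.0011), from -1.04 in rat 4 to -0.25 in rat 21. Hsf2, its relative known from development and germ cells, ran from 0.11 to 0.64 in normal tongue (median 0.46) and from -0.94 to 0.56 in OSCC (median -0.68). It differed by -0.86 ± 0.16 (adjusted p = 0.0016), with the smallest changes in rats 24, 22 and 21 (-0.08, -0.12 and -0.32). A second probe of Hsf2, well above background on all arrays, gave -0.56 ± 0.24 (adjusted p = 0.078) and was higher in OSCC in 3 of 11 pairs, by up to 1.04 in rat 24. Neither reached 2-fold. Of the 67 members, 7 moved one way in all 11 pairs, beside 10.6% of all genes.

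Heat shock factors bind repeats of the unit GAA in alternating orientation. The letters GAANNTTCNNGAA or, on the other strand, TTCNNGAANNTTC were searched in RefSeq promoter windows of the GRCr8 build, from 250 bases before to 50 after a start. Windows were found for 50 of the 67 members. The longer, 3-unit letters were in 0.798% of all 33469 windows and in those of 5 members, Dnaja1, Hspa8, Hspd1, Hspe1 and Hsph1. The shorter letters GAANNTTC or TTCNNGAA, which overlap them, were in 15.9% of all windows and in those of 16 members, Hspb1, Hspb6 and Hspb8 included. The stretches before the start of Hsph1, Hspa8 and Hspe1 are shown because they carry the longer letters while the genes' differences, 0.43, 0.04 and -0.19, did not go one way. Capitals mark the 3-unit letters.
Hsph1, chr12:10427118-10427367, plus strand: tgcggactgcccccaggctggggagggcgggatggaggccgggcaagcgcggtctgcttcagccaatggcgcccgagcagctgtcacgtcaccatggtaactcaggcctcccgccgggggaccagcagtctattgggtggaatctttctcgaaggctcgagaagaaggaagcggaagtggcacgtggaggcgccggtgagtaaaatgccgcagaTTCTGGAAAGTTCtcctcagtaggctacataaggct
Hspa8, chr8:50080264-50080513, plus strand: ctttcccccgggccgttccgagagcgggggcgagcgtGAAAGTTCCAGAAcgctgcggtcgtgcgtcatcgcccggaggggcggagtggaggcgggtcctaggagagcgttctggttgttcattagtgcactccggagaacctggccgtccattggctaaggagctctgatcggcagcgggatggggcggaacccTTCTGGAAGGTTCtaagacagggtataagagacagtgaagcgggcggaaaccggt
Hspe1, chr9:64084077-64084326, plus strand: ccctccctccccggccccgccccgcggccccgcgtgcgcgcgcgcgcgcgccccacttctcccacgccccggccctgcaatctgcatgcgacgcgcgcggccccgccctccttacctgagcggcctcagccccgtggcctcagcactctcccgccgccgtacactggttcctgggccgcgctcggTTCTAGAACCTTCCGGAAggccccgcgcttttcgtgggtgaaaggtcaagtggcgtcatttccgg

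Hspe1 holds 2 overlapping matches, and the same bases are the matches of Hspd1, whose start lies 290 bases away on the other strand. In Dnaja1 the match lies after the start, at bases 10 to 22 of the transcript.

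DnaJ proteins were called at about the share of all genes. Of the 40, 1 was called higher (Dnajc3) and 4 lower (Dnajc28, Dnajc4, Dnaja4 and Dnajc5b). At any fold 6 passed as higher and 11 as lower, the 11 including the near-background Dnajb7, Dnajb13 and Dnajc5b, with a median of -0.15. The 12.5% called stands beside 14.7% of all genes. Dnajc3, also called p58IPK, is a cochaperone of the ER lumen that restrains the kinases slowing translation. Its levels ran from -1.38 to -0.48 in normal tongue (median -0.77) and from -0.23 to 2.06 in OSCC (median 0.63). Every OSCC piece lay above every normal piece. It was the 1 member (1.49%) whose groups did not overlap, beside 1.66% of all genes, counted in either direction. The difference was 1.62 ± 0.19 (limma adjusted p = 0.00021), a fold of 3.07, from 0.49 in rat 22 to 2.82 in rat 17. It kept its call under all 5 other scalings, with 1.29 to 1.71.

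Dnajb11 (ERdj3), which brings nascent chains to the HSP70 of the ER, was higher in OSCC in all 11 rats. Its levels lay between 0.41 and 0.68 in normal tongue (median 0.59) and between 0.52 and 1.68 in OSCC (median 1.39). In 8 rats the rise was between 0.80 and 1.27, and in rats 21, 22 and 24 it was 0.24, 0.00 and 0.03. The difference was 0.72 ± 0.14 (limma adjusted p = 0.0024).

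Of the other members that work in the ER, named here after their values were seen, Hspa13 rose by 0.57 ± 0.09 (limma adjusted p = 0.0010) in all 11 rats, Dnajc10 (ERdj5), a disulfide reductase, by 0.56 ± 0.21 (adjusted p = 0.044), and Dnajb9 (ERdj4) by 0.46 ± 0.15 (adjusted p = 0.029). Dnajb12, anchored in the ER membrane and facing the cytosol, fell by 0.30 on the log2 scale with an error of 0.11 (adjusted p = 0.045). Dnajc14, also of the ER membrane, differed by -0.29 ± 0.10 (adjusted p = 0.036) by its brightest probe. Its dimmer probes disagreed, with -0.12 ± 0.10 (adjusted p = 0.31) and 0.62 ± 0.14 (adjusted p = 0.0049). Dnajc16 and Dnajc18, likewise tied to the ER, differed by 0.14 ± 0.13 and 0.03 ± 0.14 and did not pass, so the members tied to the ER did not all move one way. Over the 5 other scalings Hspa13 passed the adjusted p in 5, Dnajb9 and Dnajc14 in 3, and Dnajc10 and Dnajb12 in 2. Genes of ER folding outside the members were also higher. Of 12 such genes, 5 were called higher and 11 passed as higher at any fold, with a median of 0.90 and a mean difference above 0 in all 11 rats, from 0.29 in rat 22 to 1.52 in rat 17. Of 9 markers of salivary gland, a secretory tissue, 7 were called higher in OSCC, and their mean difference per rat was 0.60 to 11.88. Gland and ER folding differences were 8.65 and 0.61 in rat 4, 10.17 and 1.03 in rat 9, and 3.67 and 1.37 in rat 11. In rats 13, 16 and 17 they were 4.56 and 1.24, 10.83 and 0.93, and 11.88 and 1.52. In rats 21, 22 and 24 they were 5.43 and 0.3, 2.18 and 0.29, and 10.85 and 0.41. In rats 25 and 26 they were 0.60 and 1.5, and 0.68 and 0.87. Of 7 markers of B and plasma cells 4 were called higher, with a mean difference per rat of -0.02 to 3.14. The part of gland and of plasma cells in these differences was not tested.

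The ER stress response element was searched as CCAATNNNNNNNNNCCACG and its second form as ATTGGNCCACG, on both strands. The first was in 0.0657% of the 33469 windows and, among members, in that of Dnajc3, at positions -133 to -115 from the start. The second was in 0.0508% of windows and, among members, in that of Dnajb11, ending on the first base of the transcript. These stretches are shown as those of the ER members with the largest rises, with the element in capitals.
Dnajc3, chr15:102432417-102432666, plus strand: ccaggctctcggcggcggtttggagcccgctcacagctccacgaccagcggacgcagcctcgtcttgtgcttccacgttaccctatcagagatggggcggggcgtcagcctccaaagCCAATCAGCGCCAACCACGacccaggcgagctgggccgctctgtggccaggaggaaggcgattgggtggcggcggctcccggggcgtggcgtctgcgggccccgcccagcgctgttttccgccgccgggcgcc
Dnajb11, chr11:91672800-91673050, minus strand: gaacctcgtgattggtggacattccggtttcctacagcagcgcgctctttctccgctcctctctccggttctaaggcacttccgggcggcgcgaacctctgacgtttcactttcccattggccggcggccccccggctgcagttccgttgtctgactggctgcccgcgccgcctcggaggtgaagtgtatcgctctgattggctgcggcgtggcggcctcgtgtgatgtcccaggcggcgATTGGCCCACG

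In the cytosol, Dnaja1, a farnesylated partner of HSP70, ran from 1.56 to 2.18 in normal tongue (median 1.91) and from 1.91 to 3.01 in OSCC (median 2.61). With 9 OSCC pieces above all normal ones, it rose by 0.62 ± 0.15 (limma adjusted p = 0.0064), most in rat 13 (1.45), while rats 21, 22 and 24 differed by 0.00, 0.19 and 0.10. Dnajb1 (Hsp40), the classic heat-induced DnaJ, differed by 0.37 ± 0.19 and did not pass (adjusted p = 0.13), with 9 pairs higher and rat 24 at -1.19. Dnajb4 and Dnajb6, cochaperones prominent in muscle, differed by -0.13 ± 0.25 and -0.47 ± 0.22 (adjusted p = 0.69 and 0.096). Both had their largest rise in rat 24 (1.28 and 0.89).

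**Figure D4:**
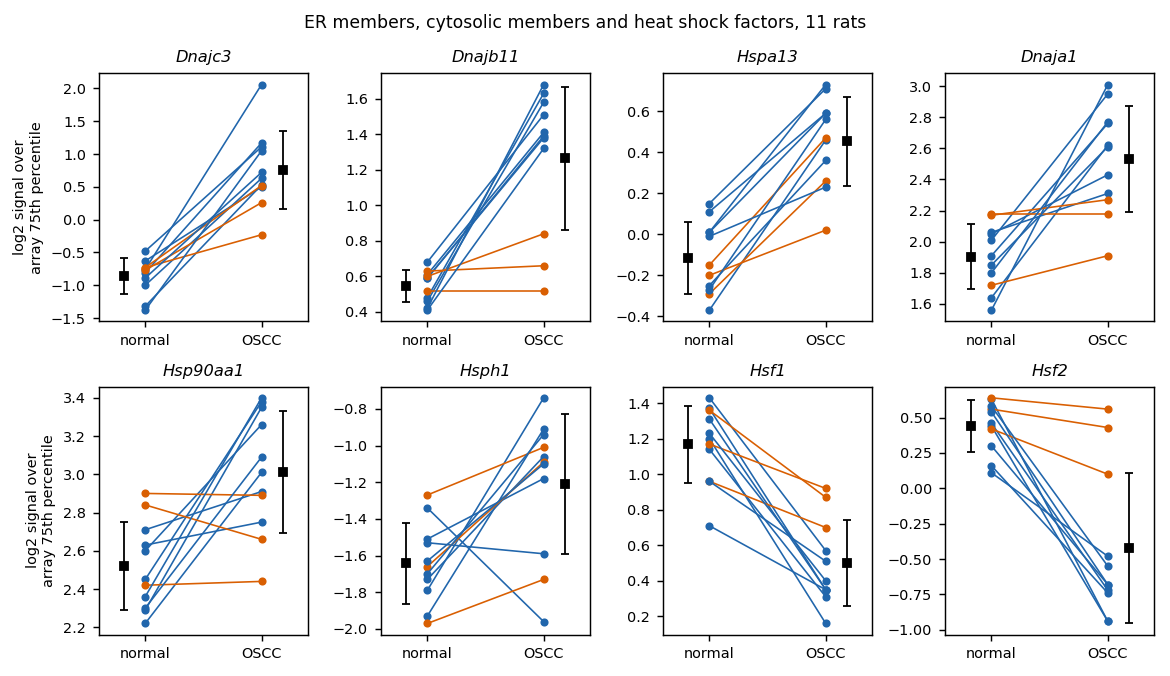
Levels of 8 members in the normal and OSCC piece of each rat: Dnajc3, Dnajb11 and Hspa13 of the ER, Dnaja1, Hsp90aa1 and Hsph1 of the cytosol, and both heat shock factors. The vertical axes give log2 signal over the 75th percentile of the array, lines join the pieces of 1 rat, squares with bars are the mean and SD of 11, and orange lines are rats 21, 22 and 24. In Dnajc3 the groups do not overlap, and both factors, each by its brightest probe, are lower in every rat.

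The DnaJ genes called lower were Dnaja4, which differed by -1.01 ± 0.28 (limma adjusted p = 0.015), Dnajc28 by -1.10 ± 0.33 (adjusted p = 0.023) and Dnajc4 by -1.06 ± 0.23 (adjusted p = 0.0038). In each of them the OSCC pieces of the 8 rats other than 21, 22 and 24 were lower, and the OSCC pieces of these 3 rats were within 0.70 of their normal piece. Dnajc5b, a cysteine-string protein of testis, also met the threshold, but it was well above background on 1 normal and no OSCC array, so no fold is given. Dnaja4 was called in 2 of the 5 other scalings and Dnajc28, Dnajc4 and Dnajc5b in 4, 3 and 1. Of the members with a tie to mitochondria, Dnajc15 (MCJ), named after its values were seen, differed by -0.94 ± 0.20 (adjusted p = 0.0038), just short of 2-fold. Dnaja3, Dnajc11 and Dnajc30, with the same tie, differed by -0.29, 0.07 and 0.02 and did not pass. These are not a full list of members tied to mitochondria, and Hspd1, Hspe1 and Hspa9 are given above.

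**Figure D5:**
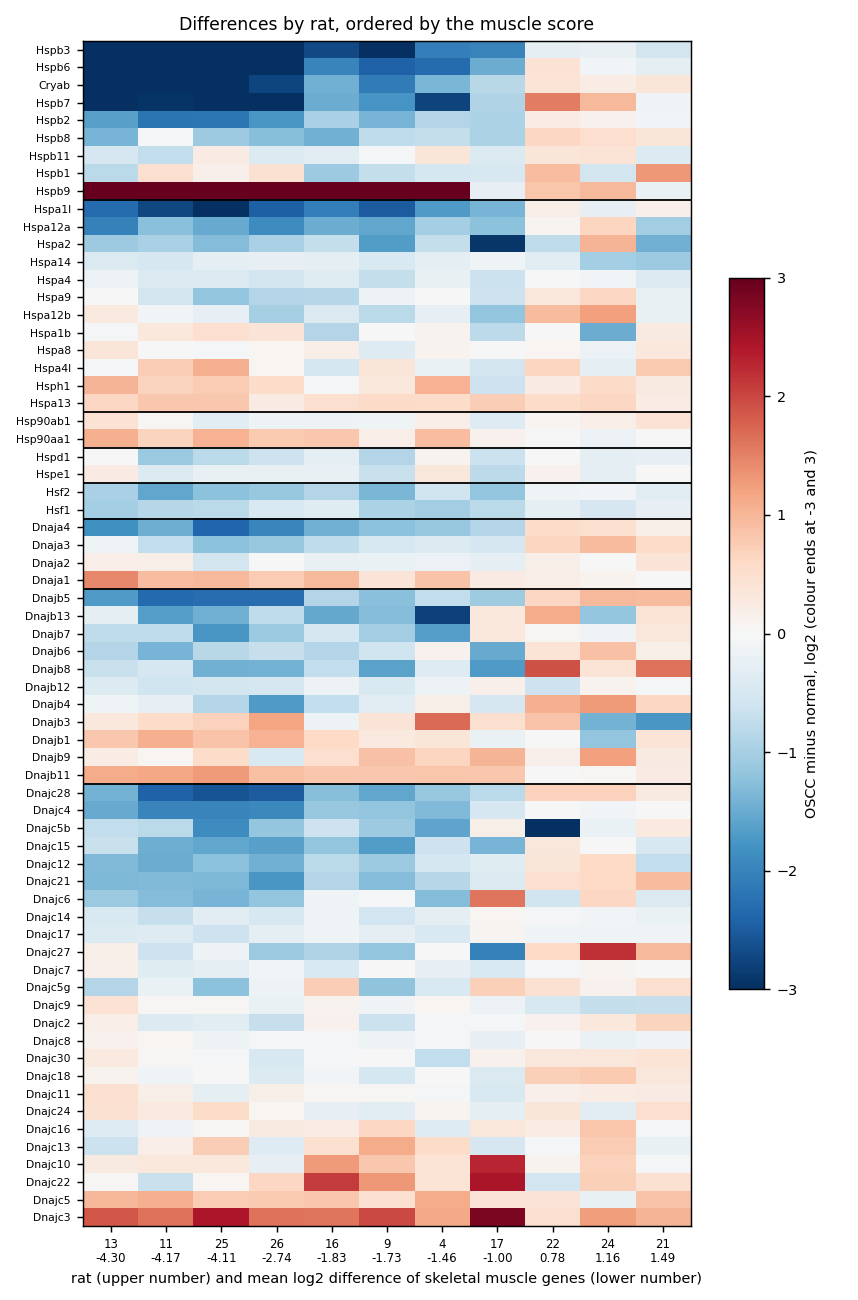
Difference between OSCC and normal for each of the 67 members (rows, grouped by role) in each of the 11 rats (columns, ordered by the mean difference of the skeletal muscle genes printed under the rat number). Blue is lower and red higher in OSCC on the log2 scale, with the colour ending at -3 and 3. Most small heat shock proteins are blue in the 8 rats on the left and pale or red in rats 22, 24 and 21 on the right, whereas Dnajc3 and Hspa13 are red and Hsf1 is blue in all.

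Of 41 other genes of the cytosolic and mitochondrial chaperone machinery (HSP90 cochaperones, BAG proteins, the CCT ring and prefoldin among them), 1 was called lower by limma and none reached 2-fold higher, the highest difference being 0.83. At any fold 6 passed as higher and 12 as lower, with a median of -0.11. The called gene was Unc45b, the myosin chaperone of striated muscle, at -1.90 ± 0.44 (limma adjusted p = 0.0056). Bag3, the partner of Hspb8 in clearing damaged filaments of muscle, and St13 (Hip), which steadies HSP70 in its client-bound state, are named after their values were seen. Bag3 differed by -0.99 ± 0.18 (adjusted p = 0.0014) and St13 by 0.60 ± 0.10 (adjusted p = 0.0012).

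Scan day and tissue were partly confounded. The 11 normal arrays and the OSCC arrays of rats 4 and 9 shared a scan day, the OSCC arrays of the remaining 9 rats had a later one, and normal and OSCC arrays never shared a slide (3 slides against 4). With scan day as a term, which leaves the tissue difference to rats 4 and 9, no member passed the adjusted p. Of all 30367 probes, 3 were called with that term and 4201 without it, so the loss was not particular to the members. At 2-fold and an unadjusted p below 0.05, 2 members were higher and 7 lower, and the share of all genes by that rule was not counted. All 14 called members kept their direction, as did 61 of the 67. The differences on that basis were -2.60 for Hspb3, -2.36 for Hspb6, -1.73 for Cryab, 3.53 for Hspb9, 1.55 for Dnajc3, 0.82 for Dnajb11, -1.0 for Hsf1 and -0.99 for Hsf2. Within the 9 pairs scanned across days they were -2.49, -2.30, -1.61, 1.97, 1.64, 0.70, -0.59 and -0.83. There 2 members were called higher and 8 lower. Of the called members, Hspb7, Dnaja4, Dnajc28 and Dnajc5b did not pass (limma adjusted p = 0.094, 0.061, 0.088 and 0.078). Of members past it at any fold, Hsp90aa1, Hspa4 and Hspd1 did not (0.069, 0.058 and 0.052). Nor did Dnajb9, Dnajc10, Dnajb12 and Dnajc14 (0.13, 0.13, 0.13 and 0.14). Hsph1, Dnajb7, Dnajb13, Dnajc12 and Dnajc17 failed it as well (limma adjusted p = 0.14, 0.14, 0.19, 0.058 and 0.16). Slide and tissue cannot be told apart.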

How the data were processed

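RNA of the 22 tissue pieces was hybridised to single-color Agilent rat arrays. The intensity values were background-subtracted and detrended by the authors with Agilent Feature Extraction 9.5.3.1 before they were deposited, per the file headers, and are linear, with no scaling from array to array. A table of ratio values was deposited by the authors as well, the signal over the 75th percentile of its array, which was checked on the values: 99.95% of those at or above 0.5 matched within 2%. The 75th percentile of signal was 236.8 to 654.9 on the normal and 338.7 to 1414 on the OSCC arrays, and 48.4 to 65.49% of probes were well above background.

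Control spots and 9196 outlier spots were left out, the mean log2 signal of each probe was taken over its spots, and the log2 of the 75th percentile of that array was subtracted. The test of OSCC against normal was limma (3.58.1, run in R 4.3.3) on a model holding tissue and rat, and p-values were adjusted by Benjamini-Hochberg over 30367 probes. The pairing comes from the animal: deviations of a rat's tissues from the tissue means correlated between -0.21 and 0.24 across probes (median -0.02). The adjusted p replaces the Student's t-test of the methods, which was run as an alternative. On simulated arrays of 30299 probes for this comparison, limma called 98 of 100 probes changed by 3 log2 units, 80 of 100 changed by 1.5, and 7 unchanged ones. The simulated noise was independent between probes and held no effect of rat, scan day or slide. These counts therefore do not cover errors from those sources.

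The members, gene lists and tests were chosen with earlier results of these data known. Named were every called member, fixed members of each family whatever their values (Hspa1b, Hspa8, Hspa4, Hsph1, Hspa9, Hsp90aa1, Hsp90ab1, Hspd1, Hspe1, Dnaja1, Dnajb1, Dnajb4, Dnajb6, Dnajc3, Dnajb11, Hsf1, Hsf2, Hspb1, 2, 3, 6, 7 and 8 and Cryab), and called genes of the other chaperone machinery. All other genes named were chosen after their values were seen. Relations with the muscle score used all permutations of 8 pairs, and their adjustment over all genes was added after seeing the data. Promoter windows are from RefSeq (GRCr8), probe positions from the array annotation (rn4). Other marker lists, of keratinocytes (1 of 10 called higher, 1 lower), neutrophils (5 of 9 higher), macrophages (7 of 10 higher), T cells (7 of 10 higher), endothelium (none of 10 called, 4 lower at any fold), fibroblasts (6 of 10 higher), adipocytes (none of 9 called), Schwann cells (8 of 10 lower) and proliferation (1 of 13 higher), were run by the same rule.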

Additional observations from a re-analysis of the deposited data

How the results depend on the processing

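The adjusted values depended most on scan day and background correction. With scan day as a term the counts called by limma were 0 members higher, 0 lower and 0 past the adjusted p at any fold, with 0 small heat shock proteins lower and 0 higher, while at an unadjusted p below 0.05 and 2-fold 2 members were higher and 7 lower. Under normexp background correction 1 member was called higher, 4 lower and 14 at any fold, with 0 small heat shock proteins higher. Of all 30367 probes, 3 were called with scan day as a term and 1706 under normexp, beside 4201 as reported. Scaling by the probes detected on all arrays left 7 called lower. Slide as a random block left 21 and the 9 pairs scanned across days 18 past the adjusted p at any fold. The median of all probes was -0.24 as reported, -0.03 under quantile normalization, -0.44 under array median scaling, -0.15 under the percentile of detected probes, -0.08 under normexp and -0.14 for the authors' ratios, and members shift with it. Without the replicate block for rat, the counts were 2 higher, 12 lower and 37 at any fold, so the pairing changed no count by over 1.5 times. The methods' t-test gave 2 higher, 12 lower and 38 at any fold unadjusted, and 32 at any fold after adjustment. Leaving out each pair in turn gave 2 to 2 members called higher, 6 to 14 called lower, 3 to 5 small heat shock proteins lower, 1 to 1 higher, and 23 to 38 at any fold. Members called lower numbered 7 without rat 11, 6 without rat 25 and 6 without rat 26, and each left 3 small heat shock proteins lower. Over all probes the calls without these rats were 3649, 3680 and 3837. Members following the muscle score by their own adjustment numbered 0 to 8 when a pair was left out (0 without rat 9, 17 or 26, and 8 without rat 4) and 0 in the 6 of 9 pairs scanned across days, but 26 under quantile normalization, 22 under array median scaling and 23 under the percentile of detected probes, where no gap split the pairs and all 11 entered. Without the pairs of rats 21, 22 and 24 that relation could not be computed, for too few pairs were left in a cluster. Signs turned for members near 0: Hsp90ab1 was 0.21 under quantile normalization (past the adjusted p), -0.18 under array median scaling, -0.03 under normexp, -0.05 as a mean of its probes, -0.06 without rats 21, 22 and 24, and -0.02 to 0.06 leaving out single pairs; Hspa8 was 0.46 under quantile normalization (past the adjusted p), -0.16 under array median scaling, -0.06 under normexp and -0.15 with scan day; Hspb1 was 0.35 under quantile normalization, 0.00 under the percentile of detected probes, 0.04 in the 9 pairs and -0.22 to 0.02 leaving out single pairs; Hspa1b was 0.04 with scan day; and Dnajb4 was -0.27 to 0.03 leaving out single pairs. The cause of these shifts was not tested. Over the named genes and settings, 714 values kept their direction and stayed called or not called by adjusted p and 2-fold together, 68 lost that call, 2 gained it and 15 changed sign. By adjusted p alone, the 22 named genes that passed it kept it in 456 of 527 values and lost it in 71, of which 22 were with scan day and 10 under normexp. For Dnajb7, Dnajb13, Dnajc6 and Dnajc5g, well above background on no array, signal over background limits the size of a change. Dnajb7 and Dnajb13 still counted as past the adjusted p and lower (-0.63 and -0.83, limma adjusted p = 0.031 and 0.048), which cannot be read as a fall of detected RNA.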
